A study of Mus musculus with 13 samples.

Results

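Meiotic maturation of mouse oocytes lacking the long noncoding RNA (lncRNA) Sirena1 was described by RNA sequencing, from the germinal vesicle (GV) stage to the metaphase II (MII) egg. The comparison set 4 libraries of MII eggs from Sirena1 Null females against 3 libraries of GV oocytes from Sirena1 Null females, which are 7 of the 13 libraries of the series. The other 6 libraries are 3 of GV oocytes and 3 of MII eggs from wild-type (WT) females. They served to ask where maturation in Null differed from that in WT. They also entered the same model, and so bear on the gene filter, the scaling and the spread behind each p-value in Null. Each library was made from 25 cells. Per the labels, the Null allele was made by Cas9-mediated deletion of the Sirena1 promoter in C57Bl/6 zygotes, heterozygotes were crossed to give Sirena1-/- females, and all 4 groups carry the strain label C57BL6/J, while the protocol names C57Bl6/J or C57BL/6NCrl females and outcrossing of the mutants to C57BL/6NCrl. GV oocytes came from superovulated females and were collected in M2 medium with 0.2 mM IBMX, an inhibitor of cAMP breakdown that holds oocytes at the GV stage. MII eggs were collected in M2 medium 12 to 14 hours after injection of human chorionic gonadotropin (hCG). Stage and way of collection therefore cannot be told apart. The labels do not say how many females gave the 25 cells of a library, or whether libraries share females, so p-values measure the spread between pools.

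A fully grown oocyte holds a large store of mRNA made during growth and is nearly silent in transcription. When meiosis resumes, the nuclear envelope breaks down, part of the store is translated after its poly(A) tails are lengthened, and another part is deadenylated and degraded, while little new RNA is made until the embryonic genome is switched on. Sirena1 is an abundant lncRNA of the mouse oocyte, and the title of the series ties it to post-transcriptional regulation and to the distribution of mitochondria. Because the values are counts relative to the other RNAs of a library, a gene whose RNA is stable while others are lost appears to rise. The labels name a Renilla luciferase spike of 0.2 pg per sample, and no row of the gene table used here is a non-gene row, so amounts per egg were not analysed here.

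Sirena1 appears in the table as C86187, an 8202 bp lncRNA gene on the minus strand of chromosome 7, from 46967710 to 46975911 in GRCm38.p6. Its promoter sequence is shown because the promoter is what the Null allele lacks. The window is that of RefSeq at chr7:46975862-46976161 (minus strand, GRCm38.p6), with 250 bases before and 50 bases after the annotated gene start, printed 5′ to 3′. Capitals mark a TATAAA, which starts 25 bases before the gene start. The motif was searched on both strands and is held by 13.6% of 32851 RefSeq promoter windows of the same length. Which bases were deleted is not stated by any label.
Sirena1 promoter: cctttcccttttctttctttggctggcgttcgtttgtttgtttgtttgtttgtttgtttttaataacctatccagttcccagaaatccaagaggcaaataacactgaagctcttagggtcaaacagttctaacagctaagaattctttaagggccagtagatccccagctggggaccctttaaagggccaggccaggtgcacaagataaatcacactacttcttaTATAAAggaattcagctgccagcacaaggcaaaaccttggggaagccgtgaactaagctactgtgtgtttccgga

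The labels were checked on Sirena1 itself. It stood at 26.4, 23.3 and 24.7 CPM (counts scaled to library size, with the TMM method) in the 3 GV Null libraries, and at 44.8, 39.6, 45 and 35.9 CPM in the 4 MII Null libraries. WT oocytes held 3006 ± 90.2 CPM at GV and 4519 ± 221 CPM at MII (SD, n = 3 each), so all 7 Null libraries matched their label. The residual Sirena1 reads in Null were higher in every egg library than in every GV library. The mean went from 24.8 ± 1.58 CPM (SD, n = 3) to 41.3 ± 4.41 CPM (SD, n = 4), a log2 fold change of 0.74 (SE 0.08, adjusted p = 1.05e-06), against 0.59 in WT.

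Total counts ran from 33360126 to 38637420 in GV Null and from 30867614 to 40602239 in MII Null, and 3 counts, the detection limit used here, corresponded to 0.0739 to 0.0972 CPM per Null library (unscaled by TMM, and covering counting error only). Counts of Null replicates differed by 10.2 to 34.3 times their sampling noise (chi-square per degree of freedom), so no library was a copy of another. The main axis of variation, which held 65.8% of the variance of log2 CPM, parted the stages, and MII Null replicate 4 lay between them at 25.7, while the other eggs of that genotype scored 65.8 to 81.4. GV Null replicates 2 and 3 stood beyond replicate 1 on the GV side, at -107.9 and -91.1 against -64.4, and carried more RNA of cumulus cell genes. Where leaving these libraries out ended a call or moved a value by over 1.5 times, the value without them stands beside it. Leaving out all 3 keeps a single GV Null library, whose spread is then taken from the other groups. Defining oocyte genes were abundant in all 7 Null libraries: Gdf9, which encodes an oocyte growth factor, had 2393 CPM in its lowest Null library, and Bmp15, its partner, 2621 CPM in its lowest.

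Maturation changed nearly as many genes upward as downward, but the downward changes were far larger. Of 20143 genes tested, 4456 rose (22.1%) and 5411 fell (26.9%) from GV to MII in Null, by edgeR's quasi-likelihood test with a Benjamini-Hochberg adjusted p under 0.05. Among these 9867 genes (49% of those tested) the median rise was 1.38-fold and the median fall 2.58-fold. A fall of at least 8-fold was estimated for 811 of the genes that fell and a rise of that size for 1 of the genes that rose. At 2-fold or more the counts were 3536 falls and 191 rises, and at 4-fold or more 1682 falls and 19 rises. All 4 MII libraries lay above all 3 GV libraries for 4279 genes (21.2%), and all 3 GV libraries lay above all 4 MII libraries for 5069 (25.2%). How the calls split into rises and falls depended on the scaling. When counts were scaled by library totals alone, 1985 genes rose and 7306 fell, so that 21.4% of the calls were rises in place of 45.2%, and the median log2 fold change over all genes tested moved from -0.05 to -0.28. Small rises are therefore read against the median of all genes. The gene lists below were chosen with earlier results of these data known. Their members were named by the smallest p of this same comparison, or after their values were seen where that is said. List shares set beside those of all genes are therefore descriptive.

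Falls were ranked among called genes with at least 20 CPM in the higher group, no overlap and no clone name. On that ranking the deepest falls joined a cyclin, ribosomal protein genes and small subunits of mitochondrial ATP synthase, and 2 inhibin genes of cumulus cells. Ccnd2, which encodes cyclin D2, a driver of the G1 phase, stood at 83.3, 60.4 and 65.9 CPM in GV Null and at 0.236, 0.070, 0.254 and 3.39 CPM in MII Null. The eggs of replicates 1 to 3 were thus near the detection limit, and those of replicate 4 well above it. The log2 fold change was -6.14 (SE 0.72, adjusted p = 7.15e-05), and -8.49 without MII Null replicate 4. Rpl39, a small protein of the large ribosomal subunit, had 127, 142 and 166 CPM in GV and 1.81, 0.98, 0.604 and 10.5 CPM in MII libraries, a log2 fold change of -5.38 (SE 0.69, adjusted p = 0.000143), and -6.97 without replicate 4. Rps13, of the small ribosomal subunit, had 105, 116 and 133 CPM in GV and 1.76, 0.735, 0.667 and 8.98 CPM in MII libraries. Here too replicate 4 stood apart from the other eggs while remaining far below the GV libraries, and the log2 fold change was -5.28, and -6.77 without it.

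Atp5mpl and Atp5e encode small subunits of the mitochondrial ATP synthase. Atp5mpl had 36.4, 40.8 and 49.1 CPM at GV and 1.18, 0.875, 0.381 and 1.9 CPM at MII, and Atp5e 46.3, 48.7 and 56.6 CPM at GV and 1.86, 0.945, 0.699 and 3.23 CPM at MII. Their log2 fold changes were -5.26 (SE 0.30) and -4.89 (SE 0.34), with no overlap between the stages. Polr2l, a small subunit shared by the nuclear RNA polymerases, stood at 36, 32 and 31.7 CPM and then 1.94, 0.875, 0.604 and 2.14 CPM (log2 fold change -4.55, SE 0.30). Further ribosomal members of the 14 largest falls were Rplp1 (-4.86), Rpsa (-4.66), Rpl38 (-4.58), Rps27a (-4.51) and Rps21 (-4.40, adjusted p = 2.21e-12), all as log2 fold changes. Without replicate 4 the value was -5.54 for Rplp1, -5.94 for Rpsa and -5.68 for Rps27a. Rps21 had 37.9, 31.5 and 33.8 CPM at GV and 1.23, 1.33, 1.78 and 2.18 CPM at MII. Inha and Inhba encode inhibin subunits of granulosa cells and are described with the cumulus markers.

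**Figure D1:**
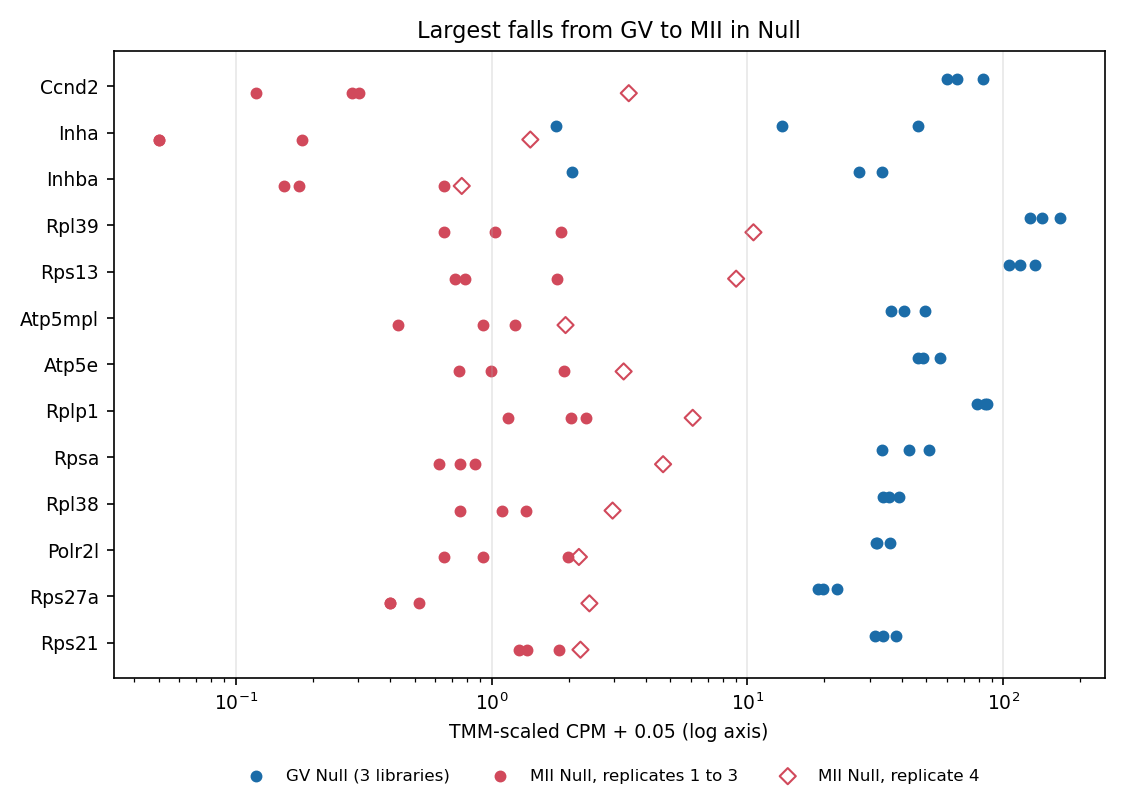
Level of 13 of the 14 named genes with the largest falls from GV to MII in Null, one row per gene, as TMM-scaled CPM plus 0.05 on a log axis, with 1 point per library (GV blue circles, MII replicates 1 to 3 red circles, MII replicate 4 red open diamond). In all 13 rows the egg libraries lie left of the GV libraries, and replicate 4 is the egg library nearest to GV, as for Ccnd2 at 3.39 CPM against 0.0700 to 0.254 CPM.

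Genes of the cytosolic ribosome fell almost throughout. Of 85 ribosomal protein genes tested, of 86 listed, 79 fell and 1 rose, with a median log2 fold change of -2.61 against -0.05 for all genes tested. The shares were 92.9% falls and 1.18% rises, against 26.9% and 22.1% over all genes. The 33 small-subunit genes had a median of -3.23 (31 fell) and the 50 large-subunit genes a median of -2.41 (47 fell). Rpl32 is one example, at 92.6, 90.2 and 99.5 CPM in GV and 18.2, 13.8, 14.3 and 16.9 CPM in MII libraries (log2 fold change -2.57, SE 0.11, adjusted p = 9.23e-12). Rplp0, a protein of the ribosomal stalk, had 77.7, 77.5 and 76.2 CPM and then 20.3, 17.9, 15.7 and 19.08 CPM, with the 4 egg libraries close together (log2 fold change -2.08, SE 0.10). Rpl39l, a copy of Rpl39 known for its activity in germ cells, went from 19.3 ± 0.927 CPM (SD, n = 3) to 1.88 ± 0.238 CPM (SD, n = 4), a log2 fold change of -3.35 (SE 0.13).

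The exceptions among the ribosomal protein genes were few, and are named here after their values were seen. Rps27l, a relative of Rps27 known as a p53 target, rose from 16.5, 14 and 17.6 CPM to 46.7, 35, 35.8 and 31.8 CPM, with no overlap (log2 fold change 1.22, SE 0.16). Rpl4 stood at 242, 242 and 219.9 CPM and then 291, 253, 258 and 242 CPM and did not pass (log2 fold change 0.15, adjusted p = 0.0765). Rpl13a (0.14), Rps15a (-0.35) and Rpl29 (-0.32) did not pass either. Ribosomal protein genes have many near-identical pseudogenes, and how reads with several matches were counted is not stated by the labels or headers, so single values of the family are uncertain. Taken as a share of all counts, the ribosomal protein genes held 0.560%, 0.680% and 0.665% in the GV libraries and 0.182%, 0.130%, 0.124% and 0.164% in the egg libraries. The groups did not overlap, and the mean was 4.23-fold higher at GV (0.635 ± 0.0655%, SD, n = 3) than at MII (0.15 ± 0.0277%, SD, n = 4). An exact two-sided permutation test over the libraries gave p = 0.0571, the smallest value that 4 against 3 libraries allow. The list's fall was as large without the 3 libraries that stood apart: 77 genes fell, with a median of -2.58. The same holds for the nuclear respiratory chain described next, with 69 falls and a median of -2.20.

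Nuclear genes of the respiratory chain fell in much the same way. Of 78 tested, of 79 listed, 71 fell and 1 rose, with a median log2 fold change of -2.20. The shares were 91.0% falls and 1.28% rises, against 26.9% and 22.1% over all genes. By complex, 35 of 37 genes of complex I fell (median -2.34), 8 of 9 of complex III (-2.16), 9 of 11 of complex IV (-2.76) and all 16 of the ATP synthase (-2.08), and each of these medians was lower still with library totals alone. Of the 4 complex II genes 2 fell and 1 rose, and Sdha, its flavoprotein subunit, was the gene that rose (log2 fold change 0.23, adjusted p = 0.0128), a call that was lost with library totals alone and without the 3 libraries that stood apart. Cox4i1, a core nuclear subunit of cytochrome c oxidase, had 59.2, 64.8 and 64.3 CPM at GV and 3.75, 2.8, 3.18 and 5.0 CPM at MII. Its log2 fold change was -4.08 (SE 0.14, adjusted p = 2.21e-12); the highest egg library had 5.0 CPM and the lowest GV library 59.2 CPM.

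Cox7a2 and Cox7a2l belong to the same enzyme and to the assembly of respiratory supercomplexes. Cox7a2 had 37.8, 37.9 and 42.2 CPM and then 3.83, 2.8, 2.51 and 3.57 CPM (log2 fold change -3.62, SE 0.13), and Cox7a2l 98.3, 78.6 and 77.5 CPM and then 9.73, 7.98, 9.44 and 11.4 CPM (-3.13, SE 0.12). Ndufb3, of complex I, had 22.4, 20.6 and 19.6 CPM and then 1.73, 1.16, 1.49 and 2.11 CPM (-3.67, SE 0.17). Members that did not pass included Cox5a (-0.14), Uqcrc2 (-0.12) and Ndufa10 (-0.19), named after their values were seen. Genes of the mitochondrial ribosome had a median of -0.68, with 52 falls and 3 rises among 76 tested, of 78 listed. That is 68.4% falls and 3.95% rises, against 26.9% and 22.1% over all genes. Mrpl21 had 47.5, 39.3 and 40 CPM at GV and 13.9, 11.6, 11.2 and 10.5 CPM at MII (log2 fold change -1.84, SE 0.10). Mrps12 had 5.11, 5.9 and 5.19 CPM and then 0.498, 0.42, 0.413 and 0.559 CPM (-3.50, SE 0.22). The 3 genes that rose were Mrpl10, Mrpl3 and Mrps2, at log2 fold changes of 0.47, 0.34 and 0.32. With library totals alone none of the 3 passed (0 rises and 65 falls in the list), and without the 3 libraries that stood apart 1 gene rose and 41 fell.

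The proteasome divided by its parts. Of 36 subunit genes tested, of 39 listed, 27 fell and 2 rose (median log2 fold change -0.83). That is 75% falls and 5.56% rises, against 26.9% and 22.1% over all genes. The catalytic core had the deeper medians, -1.55 for the 9 Psmb genes and -1.06 for the 7 Psma genes, the 6 ATPase genes (Psmc) had -0.91 and all fell, and the 14 non-ATPase genes of the cap (Psmd) had -0.35. These differences between parts were not tested. Psmb1, a core subunit, had 42.4, 35.8 and 38.1 CPM at GV and 5.51, 5.6, 4.58 and 6.56 CPM at MII (log2 fold change -2.80, SE 0.14, adjusted p = 5.62e-11). Psma3 (-2.11), Psmb6 (-1.75) and Psmb7 (-1.35) followed, also with no overlap between stages. The 2 genes that rose, Psmd1 (0.72) and Psmd3 (0.58), encode subunits of the cap.

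Translation factors moved in both directions. Of 41 genes, 17 fell and 10 rose, with a median log2 fold change of -0.09, close to that of all genes. That is 41.5% falls and 24.4% rises, against 26.9% and 22.1% over all genes. Those that fell included the exchange factor subunits Eef1d, with 120.3, 115 and 112 CPM at GV and 30.9, 27.8, 26.4 and 29.3 CPM at MII (log2 fold change -2.02, SE 0.07), and Eef1b2 (-1.60). Subunits of initiation factor eIF3 fell too, Eif3k from 49.9 ± 3.28 to 7.64 ± 2.18 CPM (-2.70) and Eif3e from 87.1 ± 8.61 to 30.4 ± 1.37 CPM (-1.52, SD, n = 3 and 4). Eif5a, Eif5b and the cap-binding Eif4e, named after their values were seen, rose by log2 fold changes of 0.76, 0.47 and 0.31, the last of which did not pass with library totals alone or without the 3 libraries. Without the 3 libraries that stood apart 4 genes rose and 17 fell, and with library totals alone 3 rose and 26 fell.

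Rises were ranked among called genes with at least 20 CPM in the higher group, no overlap and no clone name. On that ranking the 14 largest were those of 7 mitochondrially encoded mRNAs and 7 nuclear genes. Omt2b and Omt2a, a neighbouring pair of oocyte genes on chromosome 9 (78328030 to 78329620 and 78311972 to 78314797, GRCm38.p6), headed the nuclear genes. Omt2b had 812, 606 and 623 CPM in GV Null and 4007, 2769.7, 2999.9 and 2601 CPM in MII Null, so that every egg library was above every GV library. Its log2 fold change was 2.19 (SE 0.15, adjusted p = 3.84e-08). Omt2a had 755, 567 and 582 CPM and then 3594, 2515, 2751 and 2395 CPM (2.15, SE 0.15). The counts of the pair kept a ratio of 1.07 to 1.12 in all 7 Null libraries, and shared reads between the copies cannot be told apart from equal change.

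Other nuclear genes among the 14 largest rises were Fam241b, Smco4, Fubp3, Rn7sk and Tgds. Fam241b had 129, 82.3 and 92.1 CPM and then 316, 302, 338 and 286 CPM (log2 fold change 1.62, SE 0.14, adjusted p = 2.29e-07). Smco4 had 41.5, 33 and 33.8 CPM and then 136, 97.7, 101 and 87.9 CPM (1.55, SE 0.15). Fubp3 encodes an RNA- and DNA-binding protein of the far upstream element family. It had 19.4, 19 and 17.2 CPM at GV and 62.4, 54.7, 48.3 and 49.6 CPM at MII (1.54, SE 0.10), and Tgds 43.1, 33.4 and 33.6 CPM and then 90.4, 98.3, 97.2 and 86.2 CPM (1.34, SE 0.09). Rn7sk is the 7SK small nuclear RNA, which holds the elongation factor P-TEFb inactive. It had 52.7, 64.8 and 43.1 CPM and then 171, 100.5, 169 and 123 CPM, with more spread among the eggs than the genes above (log2 fold change 1.40, SE 0.22, adjusted p = 0.000297).

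**Figure D2:**
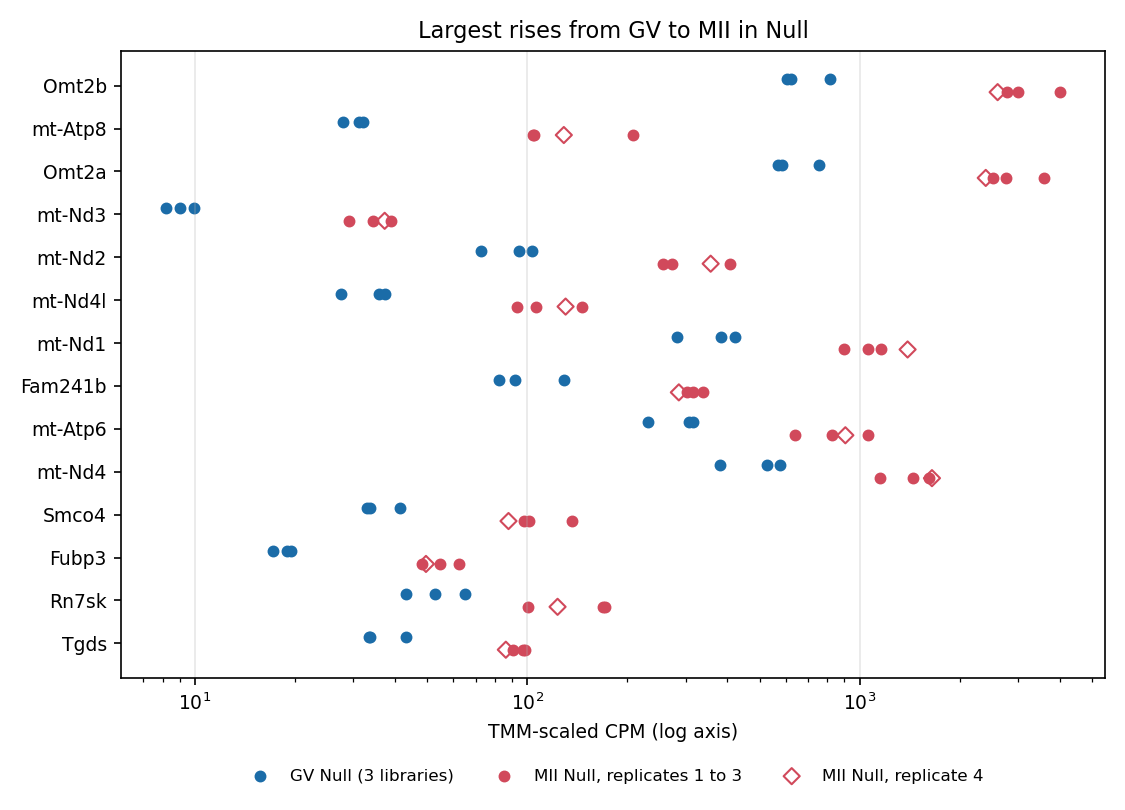
Level of the 14 named genes with the largest rises from GV to MII in Null, one row per gene, as TMM-scaled CPM on a log axis, with 1 point per library (GV blue circles, MII replicates 1 to 3 red circles, MII replicate 4 red open diamond). All egg points lie right of all GV points in every row, and 7 of the 14 rows are mitochondrially encoded mRNAs.

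All 13 mRNAs encoded by mitochondrial DNA rose, with a median log2 fold change of 1.56, and all 13 also rose with library totals alone (median 1.33) and without the 3 libraries that stood apart (median 1.86). In the main fit 100% of these mRNAs rose, against 22.1% of all genes. The 13 mRNAs encode core subunits of complexes I, III and IV and of the ATP synthase, the complexes whose nuclear genes are counted above. Among the complex I genes, mt-Nd2 had 72.7, 103 and 94.6 CPM at GV and 406, 255, 273 and 356 CPM at MII (log2 fold change 1.84, SE 0.18, adjusted p = 3.25e-06). mt-Nd5 had 379, 476 and 481 CPM and then 1026, 931, 1123 and 1238 CPM (1.28, SE 0.10). mt-Nd6, the one mRNA read from the other strand of mitochondrial DNA, rose too, with 50.5, 59.7 and 64.2 CPM and then 117, 116, 130.3 and 139 CPM (1.11, SE 0.11). Whether counting used the strand is not stated, so the mt-Nd6 value may include reads from the opposite strand. mt-Nd3 (1.95) may share reads with the copy Gm28438, to whose counts its own had a ratio of 0.812 to 0.878 in the 7 libraries, so its value is uncertain.

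For the ATP synthase, mt-Atp8 had 27.9, 31.3 and 32.1 CPM at GV and 208, 105, 104 and 129 CPM at MII, with replicate 1 highest (log2 fold change 2.17, SE 0.28), and mt-Atp6 a log2 fold change of 1.59 (SE 0.19). Cytochrome b, mt-Cytb, changed by 1.33 (SE 0.14). The cytochrome c oxidase mRNAs had log2 fold changes of 1.07 for mt-Co1, 1.14 for mt-Co2 and 0.70 for mt-Co3, the smallest of the 13 (SE 0.17, adjusted p = 0.00371). As a share of all counts, the 13 mRNAs held 0.463%, 0.673% and 0.589% at GV and 1.24%, 0.944%, 1.19% and 1.41% at MII. Every egg library was above every GV library, and the mean rose 2.08-fold, from 0.575 ± 0.106% (SD, n = 3) to 1.19 ± 0.191% (SD, n = 4). The exact two-sided permutation p was 0.0571, again the smallest this design can give.

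Dormant maternal mRNAs, which are stored at GV and translated during maturation, were mostly a little higher in eggs. Of 22 listed, all tested, 16 rose and 2 fell, with a median log2 fold change of 0.36 against -0.05 for all genes. That is 72.7% rises and 9.09% falls, against 22.1% and 26.9% over all genes. With library totals alone 10 rose and 3 fell (median 0.13), and without the 3 libraries that stood apart 9 rose and 1 fell (median 0.19). Btg4, the adaptor that brings the CCR4-NOT deadenylase to maternal mRNAs, had 844, 663 and 669 CPM at GV and 1353, 1321, 1379.6 and 1275 CPM at MII. Its log2 fold change was 0.88 (SE 0.08, adjusted p = 1.3e-07). Orc6, a subunit of the origin recognition complex, had 74, 67.3 and 63 CPM and then 121, 113, 118 and 103 CPM (0.74, SE 0.08). The decapping activator Dcp1a had 2038, 1699 and 1738 CPM and then 2691, 3127, 3191 and 2672 CPM (0.68, SE 0.08). Mos, the kinase of metaphase II arrest, passed by a small margin (-0.43, adjusted p = 0.0439), and did so in 10 of 22 alternatives only. It is named after its values were seen. Oosp2, an oocyte-secreted protein gene, went against the list, with 203, 176 and 204 CPM at GV and 40, 29.7, 27.6 and 44.6 CPM at MII (-2.45, SE 0.14).

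Genes of mRNA degradation rose more often than they fell under TMM scaling. Of 27 genes of deadenylation, decapping and decay, 14 rose and 6 fell (median log2 fold change 0.26), though 11 rose and 8 fell with library totals alone (median 0.03) and 9 rose and 4 fell without the 3 libraries that stood apart. The shares were 51.9% rises and 22.2% falls, against 22.1% and 26.9% over all genes. The deadenylase gene Cnot8 had 73, 50.5 and 51.3 CPM at GV and 112, 111, 111 and 108 CPM at MII, with the 4 egg libraries nearly equal (log2 fold change 0.92, SE 0.10). Pan3, the adaptor of the PAN2 nuclease, had 263, 249 and 257 CPM and then 362, 374, 394 and 413 CPM (0.59, SE 0.07). The deepest fall of the list was that of Tut4, a uridylyltransferase, at 2.87, 16.7 and 5.91 CPM and then 0.0787, 0.105, 0.191 and 2.52 CPM (-3.55, SE 1.01), named after its values were seen. Its GV level was highest in GV Null replicate 2 and its egg level in MII Null replicate 4. Without the latter its log2 fold change was -6.10, and without the former -2.60, which did not pass (adjusted p = 0.0728).

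Of 23 genes of mRNA storage and translational control, 14 rose and 4 fell (median 0.26), with 7 rises and 6 falls under library totals alone (median 0.03) and 10 and 4 without the 3 libraries. In the main fit 60.9% rose and 17.4% fell, against 22.1% and 26.9% over all genes. Cpeb1, the protein that binds the cytoplasmic polyadenylation element, fell from 898, 737 and 799 CPM to 293, 269, 219 and 310.1 CPM (log2 fold change -1.57, SE 0.10, adjusted p = 1.37e-09). Its relative Cpeb4 went the other way, from 151, 138 and 141 CPM to 193, 208, 209 and 215 CPM (0.53, SE 0.06). Zar1l, a maternal RNA-binding factor, fell (-0.92, SE 0.09), and Ybx2, which coats stored mRNA, rose from 120.4 ± 5.21 CPM (SD, n = 3) to 182 ± 17 CPM (SD, n = 4; 0.60, SE 0.08).

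The cell cycle lists held single genes with large falls among many small rises. Of 34 genes of the meiotic cell cycle, 13 rose and 9 fell (median log2 fold change 0.12, and with library totals alone 8 rose, 12 fell, median -0.10). These are 38.2% rises and 26.5% falls, against 22.1% and 26.9% over all genes, so that the share of falls was near that of all genes. Without the 3 libraries that stood apart the median was 0.09. Cdk1, the kinase that drives entry into metaphase, had 59.6, 58 and 56.4 CPM at GV and 21.2, 22, 19.3 and 19.7 CPM at MII (log2 fold change -1.50, SE 0.09, adjusted p = 3.62e-10). Anapc11, the RING subunit of the anaphase-promoting complex, had 25.2, 24.9 and 27.9 CPM and then 7.48, 5.5, 3.97 and 6.68 CPM (-2.13, SE 0.17). Ensa, an inhibitor of the phosphatase that opposes Cdk1, fell as well (-1.25, SE 0.13). Cyclin A2, Ccna2, rose from 166, 148 and 149 CPM to 244, 249, 241 and 226 CPM (0.64, SE 0.07).

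Among 38 spindle and chromosome genes tested 18 rose (47.4%) and 8 fell (21.1%), with a median of 0.14, against 22.1% and 26.9% of all genes. With library totals alone 3 rose and 15 fell (median -0.08), and without the 3 libraries that stood apart 5 rose and 8 fell. Birc5, the survivin subunit of the chromosomal passenger complex, fell from 337, 305 and 319.5 CPM to 94.5, 66.2, 64.8 and 74.7 CPM (log2 fold change -2.09, SE 0.10, adjusted p = 4.33e-11). Tacc3, a spindle microtubule protein, fell from 707 ± 71.3 CPM (SD, n = 3) to 347 ± 19.5 CPM (SD, n = 4; -1.03). The kinetochore subunits Spc24 and Spc25 fell, with log2 fold changes of -2.67 and -1.01, and for Spc24 replicate 4 was the highest egg library (2.23, 1.89, 1.33 and 4.63 CPM, after 16.3, 16.1 and 16 CPM at GV). Of 34 genes of G1/S cyclins and replication licensing, 12 rose and 6 fell (median 0.15, and with library totals alone 5 rose, 12 fell, median -0.08). The shares were 35.3% rises and 17.6% falls, against 22.1% and 26.9% over all genes. Without the 3 libraries the median was 0.098. Ccnd2 had the deepest fall of that list. Dbf4, the activator of the Cdc7 kinase, and Rb1, the retinoblastoma protein, rose by log2 fold changes of 0.59 (SE 0.08) and 0.55 (SE 0.07).

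Of the egg coat genes, Zp2 and Zp3 fell. Zp2 had 1268, 1159 and 1365 CPM at GV and 359.5, 322, 302 and 500.0 CPM at MII (log2 fold change -1.77, SE 0.14), and Zp3 1391, 1538 and 1671 CPM and then 358, 283, 228 and 431 CPM (-2.24, SE 0.21), with replicate 4 the highest egg library for both. Over the list of 17 zona and sperm-egg interaction genes tested, 9 fell and 6 rose (median -0.45). These are 52.9% falls and 35.3% rises, against 26.9% and 22.1% over all genes. The counts were 6 and 5 (median -0.14) without the 3 libraries that stood apart, and with library totals alone 9 fell and 4 rose. Cd9, a membrane protein needed for gamete fusion, fell (-0.83, SE 0.13), and Cacna1h, a T-type calcium channel, rose from 76.8, 70.5 and 77.6 CPM to 99, 112, 114 and 97 CPM (0.49, SE 0.08).

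Maternal-effect factors went in both directions, 13 up and 12 down of 30 tested (median 0.15, and with library totals alone 4 rose, 13 fell, median -0.08). In the main fit 43.3% rose and 40% fell, against 22.1% and 26.9% over all genes. Leaving out the 3 libraries gave 7 rises and 11 falls. Npm2, the histone chaperone nucleoplasmin, had 322, 332 and 369 CPM at GV and 114, 107, 112 and 117 CPM at MII (log2 fold change -1.60, SE 0.07, adjusted p = 4.45e-12). Dppa3, which protects maternal methylation, fell from 1063 ± 102 CPM (SD, n = 3) to 409 ± 60.8 CPM (SD, n = 4; -1.38), and the methyltransferase Dnmt1 had a log2 fold change of -0.86 (SE 0.07). Zfp57, a zinc finger protein of imprint protection, rose from 1639 ± 18 CPM to 2856 ± 291 CPM (0.80, SE 0.07). Khdc3, a member of the subcortical maternal complex and the deepest fall of the list, had 36.7, 44.3 and 48.7 CPM and then 1.5, 1.3, 1.08 and 7.52 CPM (-3.92, SE 0.54, and -5.07 without replicate 4), and is named after its values were seen.

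Oocyte gene families held changes in both directions. Of 48 tested, of 50 listed, 23 rose and 17 fell (median 0.16). That is 47.9% rises and 35.4% falls, against 22.1% and 26.9% over all genes. Scaled by library totals alone 17 rose and 21 fell (median -0.07), and without the 3 libraries 18 rose and 16 fell. The Fbxw genes of the oocyte cluster, F-box proteins, fell in 12 of 13 cases (median -0.89), while all 6 Tcl1 genes rose (median 0.63), and with library totals alone all 13 Fbxw genes fell and all 6 Tcl1 genes rose. Fbxw21 had 433, 418 and 489.8 CPM at GV and 182, 159, 159 and 191 CPM at MII (log2 fold change -1.37, SE 0.08). Tcl1 itself had 322, 301 and 335 CPM and then 724, 706, 685 and 635 CPM (1.11, SE 0.07). These families were singled out after their values were seen, and their members are similar copies among which reads may be split, so they are not independent.

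Among 17 growth factor and transcription factor genes of the oocyte tested, 6 rose and 2 fell (median 0.06, and with library totals alone 2 rose, 6 fell, median -0.17; without the 3 libraries 4 rose and 2 fell). In the main fit 35.3% rose and 11.8% fell, against 22.1% and 26.9% over all genes. Figla, a transcription factor of zona genes, fell from 7.29, 9.17 and 9.34 CPM to 3.1, 2.07, 2.32 and 2.64 CPM (log2 fold change -1.76, SE 0.17). Foxo3, which keeps primordial follicles dormant, rose by 0.48 (SE 0.07), while the growth factor genes Gdf9 (-0.16, adjusted p = 0.133) and Bmp15 (0.14, adjusted p = 0.119) did not pass. Of 18 genes of the cAMP pathway of meiotic arrest, 10 rose and 1 fell (median 0.33). These are 55.6% rises and 5.56% falls, against 22.1% and 26.9% over all genes. With library totals alone 7 rose and 3 fell (median 0.11), and without the 3 libraries 6 rose and 1 fell. Prkar2a, a regulatory subunit of protein kinase A, had 132, 119 and 114 CPM at GV and 166, 178, 185 and 173 CPM at MII (0.53, SE 0.07), and the anchoring protein gene Akap7 rose by 0.50. In the small RNA list 8 of 23 fell (34.8%) and 5 rose (21.7%), near the shares over all genes (26.9% and 22.1%), with a median of 0.16. Scaled by library totals alone 10 fell and 1 rose (median -0.07), and without the 3 libraries 5 fell and 1 rose. Tsn and Tsnax, which encode the translin complex, fell together, Tsn from 32.6, 34.7 and 32.5 CPM to 11, 9.03, 9.95 and 13.6 CPM (-1.61, SE 0.12) and Tsnax with a log2 fold change of -1.37 (SE 0.11), and Tnrc6c, of the microRNA silencing complex, rose (0.59, SE 0.08).

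For the mitochondrial distribution that the study's title names, 23 genes of mitochondrial dynamics, transport and mtDNA maintenance were tested, of 25 listed. Of these 10 fell and 6 rose (median -0.28). That is 43.5% falls and 26.1% rises, against 26.9% and 22.1% over all genes. Without the 3 libraries that stood apart 10 fell and 1 rose, and with library totals alone 14 fell and 1 rose. Trak2, an adaptor that links mitochondria to motor proteins, fell from 37.2, 47.6 and 43.8 CPM to 10.3, 12.5, 11.9 and 15.2 CPM (log2 fold change -1.78, SE 0.14, adjusted p = 1.31e-08), against -1.28 in WT. For Trak2 the difference between genotypes (-0.49, SE 0.21) did not pass edgeR's quasi-likelihood test (adjusted p = 0.999). Its paralog Trak1, named after its values were seen, had 233, 197 and 214 CPM and then 263, 255, 271 and 231 CPM, which overlap in 1 library, and rose slightly (0.25, adjusted p = 0.0073), a call lost with library totals alone and without the 3 libraries. Fis1, a fission factor, fell from 8.35, 9.93 and 7.28 CPM to 3.36, 1.58, 1.94 and 1.83 CPM (-1.95, SE 0.24), and Ssbp1, which coats single-stranded mitochondrial DNA, from 17.9 ± 2.04 CPM to 8.38 ± 1.43 CPM (-1.10, SE 0.13). Lrpprc, which stabilises mitochondrial mRNAs, had a log2 fold change of -0.60 (SE 0.08) while those mRNAs rose.

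Elongin B and C are adaptor subunits of cullin ubiquitin ligases. Elob, Elongin B, had 19.06, 22.3 and 26 CPM at GV and 6.4, 3.36, 2.7 and 4.63 CPM at MII (log2 fold change -2.38, SE 0.22, adjusted p = 1.07e-07). Eloc, Elongin C, had 228, 193 and 225 CPM and then 70.5, 56.5, 53.6 and 75.8 CPM (-1.75, SE 0.11). The RING subunits Rnf7 and Rbx1 fell, with log2 fold changes of -2.08 and -1.01. Elobl, an Elob-like gene in the same list, had 4757, 4511 and 4628 CPM and then 5110.5, 3283, 2700.0 and 3832 CPM, which overlap, and did not pass (-0.31, adjusted p = 0.175). It is named after its values were seen. Of the 13 genes tested in this list 6 fell and 2 rose (median -0.43), and with library totals alone 10 fell and 1 rose. In the main fit 46.2% fell and 15.4% rose, against 26.9% and 22.1% over all genes. Leaving out the 3 libraries gave 4 falls and 1 rise.

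**Figure D3:**
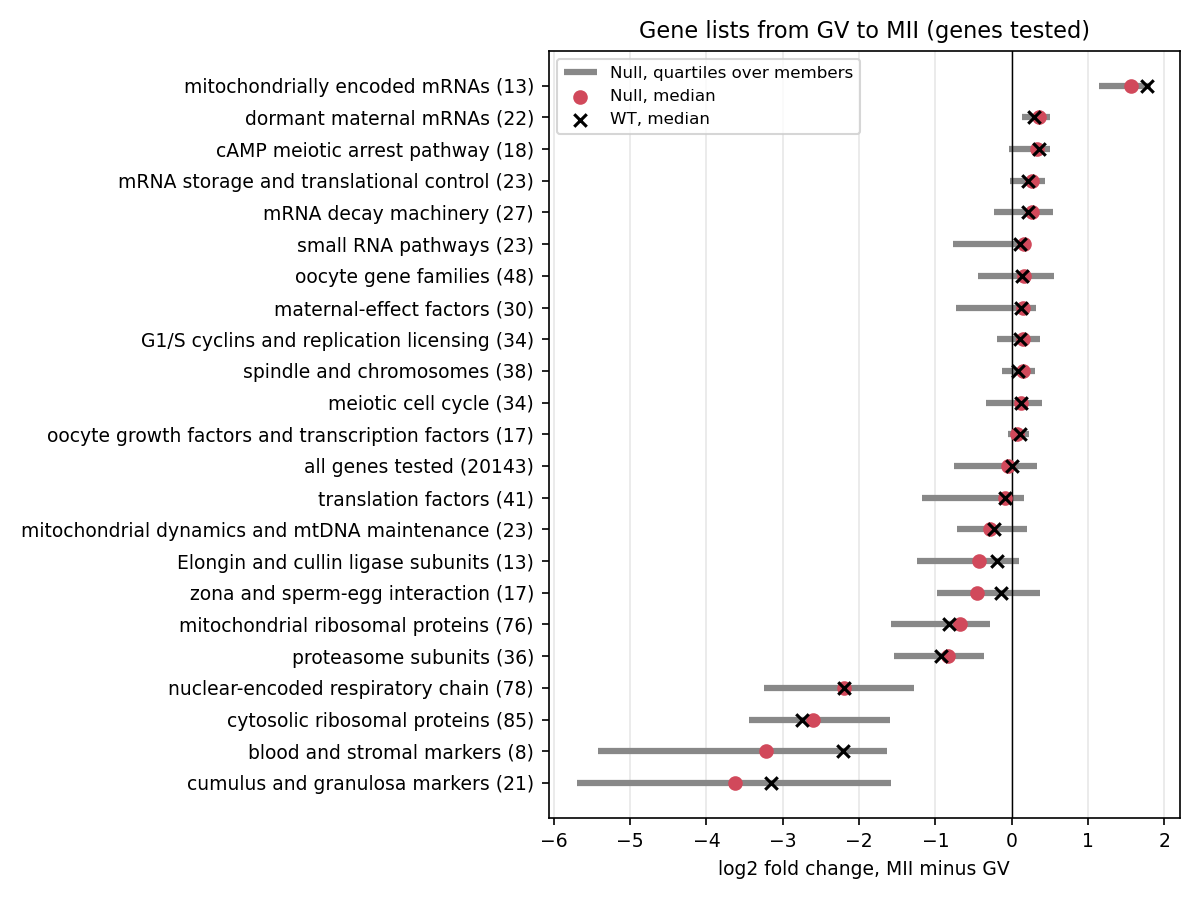
Log2 fold change from GV to MII for the gene lists and for all genes tested, 1 row each with the number of genes tested, where the red point is the Null median, the grey bar the quartiles over members in Null, the cross the WT median and the vertical line no change. Cytosolic ribosomal proteins (median -2.61) and the nuclear-encoded respiratory chain (-2.20) lie left of the line, and the 13 mitochondrially encoded mRNAs (1.56) lie right of it.

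Markers of the somatic cells around the oocyte fell as well, and here the GV libraries differed among themselves. Of 21 cumulus and granulosa markers tested, of 25 listed, 15 fell and 1 rose (median log2 fold change -3.63). These are 71.4% falls and 4.76% rises, against 26.9% and 22.1% over all genes. Without the 3 libraries that stood apart 9 fell and 2 rose (median -1.16). Inha had 1.74, 46.4 and 13.6 CPM in GV Null and 0.131, 0, 0 and 1.37 CPM in MII Null (log2 fold change -5.76, SE 1.41, adjusted p = 0.0115), with -8.60 without MII Null replicate 4 and -5.02 without the 3 libraries. Inhba had 2.01, 33.5 and 27.3 CPM and then 0.603, 0.105, 0.127 and 0.715 CPM, and its log2 fold change of -5.69 became -2.74 without the 3 libraries. Hsd17b1, an enzyme of estradiol synthesis, had 1.25, 5.4 and 5.06 CPM and then 0, 0, 0 and 0.249 CPM, and Inhbb 1.94, 13.7 and 9.37 CPM and then 0, 0, 0 and 0.28 CPM. In each of these 4 genes GV Null replicate 1 was the lowest GV library and MII Null replicates 1 to 3 were under 1 CPM. Hsd3b1, a steroidogenic enzyme named after its values were seen, had a wide spread among GV libraries, with 2.8, 258 and 51.8 CPM at GV and 1.84, 1.58, 1.91 and 4.79 CPM at MII, and did not pass without the 3 libraries (log2 fold change -0.65, adjusted p = 0.642).

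The summed level of the cumulus list was 305, 978 and 494 CPM in GV Null and 325 to 345 CPM in MII Null, against 288 to 324 CPM in GV WT. At MII most of that sum was Serpine2, a protease inhibitor gene that rose (191, 198 and 183 CPM, then 268, 255, 245 and 236 CPM, log2 fold change 0.39, SE 0.06). In pooled cells, fewer attached cumulus cells and less RNA per cumulus cell cannot be told apart. The part of cumulus RNA in the falls of other genes was not tested. Of 8 blood and stromal markers tested, of 16 listed, 3 fell (Acta2, Col1a1 and Col3a1) and 1 rose, and without the 3 libraries 0 fell. In the main fit 37.5% of these markers fell and 12.5% rose, against 26.9% and 22.1% over all genes. With a block for the replicate number Col1a1 did not pass (adjusted p = 0.0667). Acta2 had 0.221, 6.81 and 0.632 CPM at GV and 0, 0.070, 0.0318 and 0.0622 CPM at MII, high in replicate 2 alone. The summed level of that list was 81.0 to 127 CPM in GV Null and 82.1 to 94.3 CPM in MII Null. In every Null library most of that sum was Pecam1, an endothelial marker that rose (0.42, SE 0.08), so the sum says little about the other markers.

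MII Null replicate 4 was the egg library nearest to GV oocytes. For each egg library, genes were chosen on the other 3 egg libraries and the GV libraries, and its own level was then placed between the 2 stages. Only genes with a mean of at least 5 CPM were kept. That mean was taken over the GV libraries for falls of at least 8-fold, and otherwise over the GV and the other egg libraries. Of 1109 genes that fell at least 8-fold without replicate 4, 345 were kept, and replicate 4 stood above the mean of the other eggs in 330. Over all 345 genes its median excess was 6.66% of the gap between GV and MII levels (quartiles 4.57% to 10.2%). The medians of the other libraries, each over its own set of 256 to 303 genes, were 0.822% for replicate 1, -3.04% for replicate 2 and -3.19% for replicate 3. On the rising side 916 genes were kept, of 1237 that rose at least 1.5-fold without replicate 4. Replicate 4 reached a median of 75.2% of the rise (quartiles 56.2% to 89.2%) and fell short in 803. Replicates 1 to 3 reached 93.8%, 96.7% and 107%. On the falling and the rising side, the reference of replicates 1 to 3 includes replicate 4. Their contrast with replicate 4 is therefore partly built in. On the same log2 scale and at the same 1.5-fold limit, the falling side parted the eggs less clearly, since replicate 4 reached a median of 84.7% of the fall and replicate 1 86.6%, against 108% and 115% for replicates 2 and 3. The mitochondrially encoded mRNAs did not follow this, as replicate 4 had the highest of the 4 egg shares (1.41%). Without replicate 4, 4288 genes rose and 5741 fell, and falls of at least 8-fold numbered 1109 in place of 811.

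**Figure D4:**
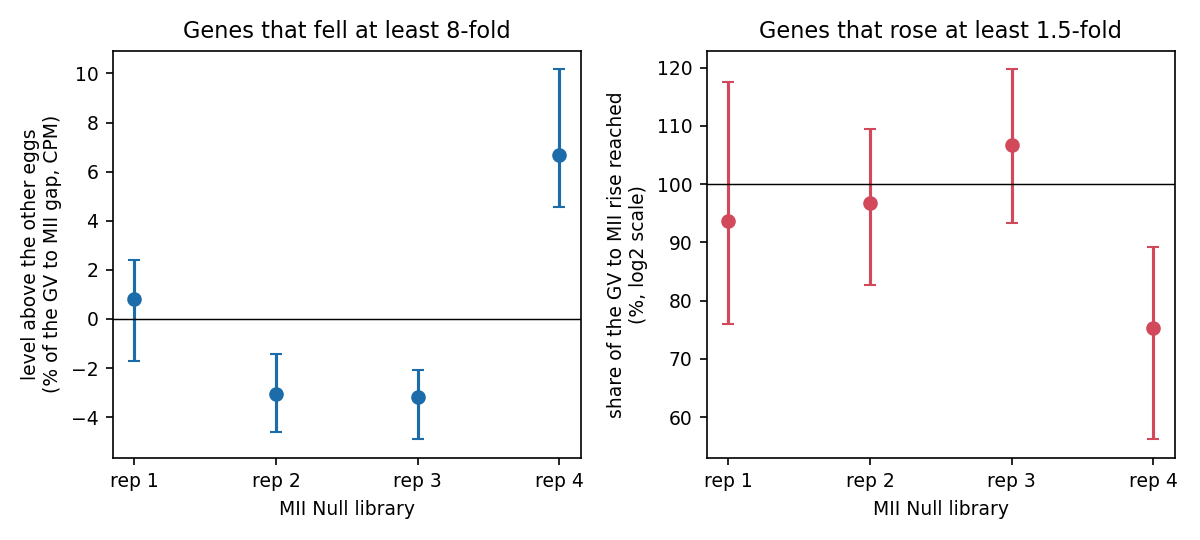
Position of each of the 4 MII Null libraries between the GV level and the level of the other 3 egg libraries, as medians (points) with quartiles (bars) over genes, on the left for genes that fell at least 8-fold (percent of the gap in CPM) and on the right for genes that rose at least 1.5-fold (percent of the rise on the log2 scale). Replicate 4 reached 75.2% of the rise against 93.8% to 107% for the other libraries, whose references include replicate 4. Genes shown had a mean of at least 5 CPM, over GV libraries on the left and over GV and the other egg libraries on the right.

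Maturation in Null was set beside maturation in WT. The 2 comparisons share no library, but both come from 1 model with a shared spread per gene, so their calls are not independent. The main fit called 9867 genes in Null and 8609 in WT. With each genotype fitted alone the counts were 8372 in Null and 9745 in WT, so which genotype had more calls depended on the fit. In WT, 4014 genes rose (19.9%) and 4595 fell (22.8%). Of the rises 3398 were called in both genotypes, 76.3% of those in Null and 84.7% of those in WT, and of the falls 4069, 75.2% of those in Null and 88.6% of those in WT. One gene was called in opposite directions, Flg, with counts of 36, 28 and 7 in GV Null and 0 in all 4 MII Null libraries, and of 0, 0 and 0 in GV WT and 0, 1 and 13 in MII WT, so that 1 egg library carries its WT value. Over 11086 genes with at least 5 CPM in a group, the log2 fold changes of the genotypes had a Pearson r of 0.96 and a Spearman rho of 0.92 (across genes, which are not independent replicates). The median absolute difference was 0.106 on the log2 scale, and 97.5% of these genes differed by less than 1.5-fold. Side by side, the list medians in Null and WT were -2.61 and -2.75 for cytosolic ribosomal proteins, -2.20 and -2.19 for the nuclear-encoded respiratory chain, 1.56 and 1.77 for mitochondrially encoded mRNAs and 0.36 and 0.30 for dormant mRNAs.

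The difference itself was tested as an interaction, and 1 of 20143 genes passed (0.00496%), Zfp385b, while 681 had an unadjusted p under 0.05 (3.38%). Zfp385b encodes a zinc finger protein (chromosome 2, 77410622 to 77817706, GRCm38.p6). It had 15, 15.9 and 15.5 CPM in GV Null and 18.7, 15.4, 19.5 and 17.2 CPM in MII Null, which overlap. In WT the GV libraries had 8.62, 9.10 and 7.68 CPM and the egg libraries 18.5, 21.2 and 22.4 CPM. The log2 fold change was 0.20 in Null (SE 0.11, adjusted p = 0.142) and 1.29 in WT, a difference of -1.09 (SE 0.16, adjusted p = 0.041). All 3 GV Null libraries lay above all 3 GV WT libraries, and the egg libraries of the genotypes overlapped. No gene was called with RLE scaling, with a block for the replicate number or without the 3 libraries that stood apart. Of the 13 fits that each left out 1 library, 12 called 0 genes and 1 (without MII WT replicate 1) called 1. DESeq2 called 2 genes, Zfp385b and Kctd14.

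Genes next in order of p for the difference did not pass (adjusted p = 0.999 each for Klf6, Zfp551, Cblb, Flg and Gm11408). Klf6, a zinc finger transcription factor, had 2.5, 4.4 and 4.21 CPM in GV Null and 1.26, 1.02, 1.4 and 1.71 CPM in MII Null, with a log2 fold change of -1.46 in Null and 0.42 in WT. Zfp551 had 0.90 in Null and -0.45 in WT, and Cblb, a ubiquitin ligase gene, -0.18 and 0.90, all at levels under 10 CPM in Null. Without the 3 libraries that stood apart the changes of Klf6 (-1.02) and Zfp551 (0.63) in Null did not pass. A p that misses the threshold does not show that the genotypes matured alike in these genes. No member of the gene lists passed the test of the difference, and Sirena1 itself had a difference of 0.15 (SE 0.12).

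**Figure D5:**
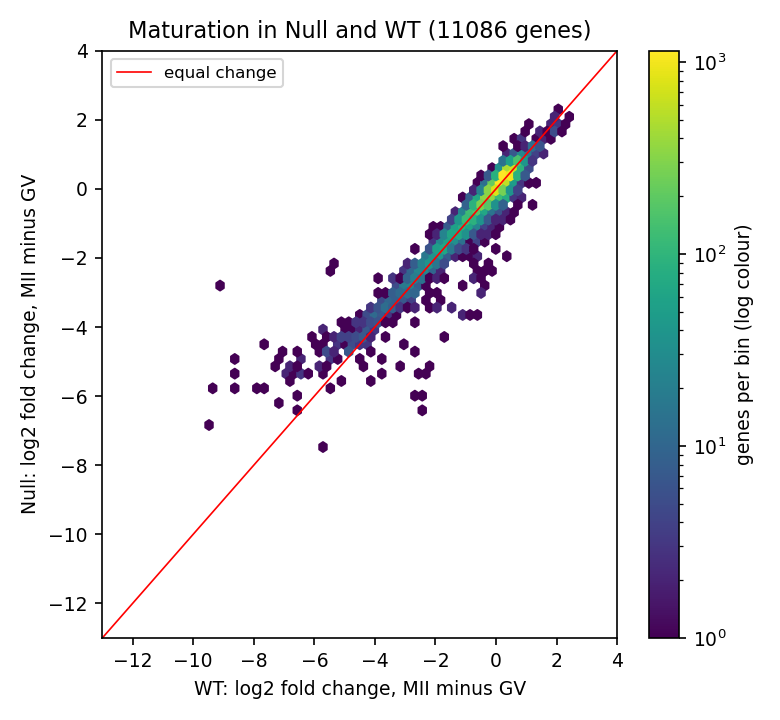
Log2 fold change from GV to MII in Null (vertical) against that in WT (horizontal) for 11086 genes with at least 5 CPM in a group, binned into hexagons whose colour gives the number of genes on a log scale, with the line of equal change. The densest bins lie along the line (Pearson r 0.96), and bins off the line are mostly at large falls.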

How the data were processed

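Per the labels' protocols, total RNA of 25 cells per library was extracted with PicoPure, amplified with the Ovation RNA-Seq V2 system and sequenced as single-end 65 bp reads. The submitters' processing notes name STAR 2.5.3a, bedtools 2.26.0 and the mouse build mm10 (GRCm38.p6), and the deposited values are whole-number read counts per Ensembl release 93 gene, not normalized, per the file headers. They do not name the counting tool, whether strand was used, or how reads with several matches were treated.

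Of 54232 genes (54079 matched to a symbol by gene ID), 20143 passed edgeR's filterByExpr by group and were tested. All 13 libraries entered 1 edgeR model of 4 groups (TMM, robust quasi-likelihood test; edgeR 4.0.16, R 4.3.3), with Benjamini-Hochberg adjustment and a threshold of 0.05, since all groups then share 1 estimate of the spread. Fold changes of groups near 0 counts depend on the prior count and are no bounds. Alternatives were DESeq2 1.42.0, RLE scaling, library totals alone, other filters, a minimum of 1.5-fold, a block for the replicate number, the libraries of 1 genotype alone, each library left out in turn, and the 3 libraries that stood apart left out together.

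The named genes were Sirena1, the 14 largest rises and falls (at least 20 CPM in the higher group, no overlap, no clone names), the 4 members of each list with the smallest p, and 6 genes for the difference between genotypes. The members and the 22 lists were chosen with earlier results of these data known. The test was also run on simulated counts in which few genes changed, up or down at random. In these data 49% of genes were called, so that run does not bear on the split into rises and falls. Some genes of these sets are not reported here. Shares used an exact permutation test. Coordinates and the promoter window are from RefSeq, matched by symbol.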

Additional observations from a re-analysis of the deposited data

Results flagged for a closer look

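Of 114 levels of named genes and shares tested over the 4 MII Null libraries, 10 (8.77%) had 1 library whose gap to the nearest other library took most of the group's range, where chance gives about 1 in 20. That rate does not hold for genes at 0 in the other eggs, where the gap always takes the whole range. The genes also share their libraries and are not independent, so the 2 rates cannot be compared. In 9 of the 10 flagged levels the library was MII Null replicate 4, and it was the highest each time. Ccnd2, cyclin D2, stood at 3.39 CPM there against 0.070 to 0.254 CPM in the other eggs. For ribosomal protein genes, Rpl39 stood at 10.5 CPM (others 0.604 to 1.81), Rps13 at 8.98 CPM (0.667 to 1.76), Rpsa at 4.63 CPM (0.572 to 0.813) and Rps27a at 2.36 CPM (0.35 to 0.472). Genes of granulosa cells gave Inha at 1.37 CPM (others 0 to 0.131), Hsd17b1 at 0.249 CPM and Inhbb at 0.28 CPM, both at 0 in the other eggs, and the collagen gene Col3a1 stood at 0.311 CPM (0 to 0.0262). The remaining gene, Entpd5, was highest in replicate 3, at 44.3 CPM against 39.8 to 40.0 CPM. What set replicate 4 apart was not tested.

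Zfp385b was flagged because its maturation change differed between the genotypes by the interaction test, by -1.09 on the log2 scale (edgeR, adjusted p = 0.041).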

How the results depend on the processing

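No gene called both in Null and in any of 22 alternatives had opposite directions, and 85 of 114 named genes kept their direction and their side of the threshold in every alternative that gave them a value. With library totals alone 1985 genes rose in Null and 1831 in WT, against 4456 and 4014. A filter of 5 CPM left 6391 calls in Null (2919 higher, 3472 lower) among fewer genes tested. A minimum of 1.5-fold left 3230 (205 higher, 3025 lower) in Null and 2707 (193 higher, 2514 lower) in WT. Without the 3 libraries that stood apart 2799 genes rose; this leaves 1 GV Null library, which is assumed to vary like the other groups. Leaving out 1 library gave 8234 to 10217 calls in Null, and a fit of the Null libraries alone gave 8372. The count for the difference between genotypes, 1, became 0 with RLE scaling, with the minimum of 1.5-fold, with the replicate block and without the 3 libraries, 157 with no filter on low counts, 2 with DESeq2, and 0 to 1 when 1 library was left out; the cause was not tested. In single genes the direction in Null reversed for Zfp385b with library totals (-0.031), for Cblb (main -0.18) without GV Null replicate 2 (0.064, in a range of -0.292 to 0.064 over libraries left out) and without the 3 libraries (0.20), and for Col1a1 without the 3 libraries (4.74). A minimum of 1.5-fold ended the call of 24 named genes, and leaving out the 3 libraries that of Klf6, Zfp551, Sohlh2, Acta2, Col3a1 and Col1a1. Col3a1 also did not pass without any 1 of GV Null replicate 2 and MII Null replicates 1, 2 and 3.

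Same-numbered GV and MII Null libraries had deviations from their group means correlated at -0.0635, -0.132 and -0.103 over 10307 genes. Deviations from means of 3 and 4 libraries are tied to one another. These values therefore cannot show whether the numbers pair the samples. With the replicate block 9872 genes passed in Null, and among named genes Col1a1 lost its call (-3.67, adjusted p = 0.0667). Depth limits genes near 3 counts per library, the detection limit used here.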
